A study of Mus musculus with 6 samples.

Results

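Keratins of the trophectoderm, Krt8, Krt18, Krt7 and Krt19, were followed in single mouse blastocysts. The 4 genes were taken by name, through their Ensembl identifiers, from a table of 12149 genes, and all 4 were present. The embryos had a C57BL/6 background and were at embryonic day 3.5. As zygotes they had received small RNAs of sperm at 2 ng/µl, and they were cultured for about 96 h after the injection, first in M16 and from the next day in potassium-supplemented simplex optimized medium. In the Dep group (3 embryos) the small RNAs came from male mice made depressive by stress, and in the Ctl group (3 embryos) from normal males. Each library is 1 whole embryo, both groups were injected, and shared parents, sperm RNA donors or injection sessions are not recorded in the labels. The p-values below therefore measure the spread between these embryos, part of which may be technical, and not the spread between donor males.

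Keratins are the intermediate filament proteins of epithelia. A filament is built from pairs of 1 acidic type I chain (here Krt18 and Krt19) and 1 basic type II chain (here Krt8 and Krt7), and a chain without a partner is degraded. The trophectoderm, the outer layer of the blastocyst that gives rise to the placenta, is the first epithelium of the mouse embryo and has long been recognised by its keratin 8 and 18 filaments. Mouse embryos that lack both keratin 18 and keratin 19 die in midgestation with damage to trophoblast giant cells.

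The libraries held 16543356 to 21548220 reads in listed genes. Listed genes without a read numbered 691 in Dep 1, but 5 and 23 in the other Dep embryos and 10 to 106 in Ctl, so Dep 1 differed from all others. The label of a blastocyst was checked with lineage markers other than the keratins. All 9 trophectoderm markers were detected in every embryo, with a mean level on the log2(normalized count + 1) scale of 10.05 to 11.23 in Dep embryos and 10.37 to 10.64 in Ctl embryos. A normalized count is a read count divided by the scaling factor of its library. Of 8 epiblast markers Dep 1 had Fgf4 at 0, and its mean log2 level was 7.50, with 9.69 and 9.86 in the other Dep embryos and 9.33 to 9.81 in Ctl. Of 8 listed primitive endoderm markers Dep 1 had Gata4, Sox7 and Sox17 at 0, and Ctl 3 had Gata4 at 0 and Sox17 at 0.88. The mean log2 level of these markers was low in both, 6.05 in Dep 1 and 6.73 in Ctl 3. It was 10.11 in each of the other Dep embryos and 8.94 and 9.84 in Ctl 1 and Ctl 2. Of 10 markers of cumulus and granulosa cells 1 was listed, Amhr2, of 4 sperm markers 1, Prm1, and of 5 fibroblast markers 0 were listed.

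**Figure D1:**
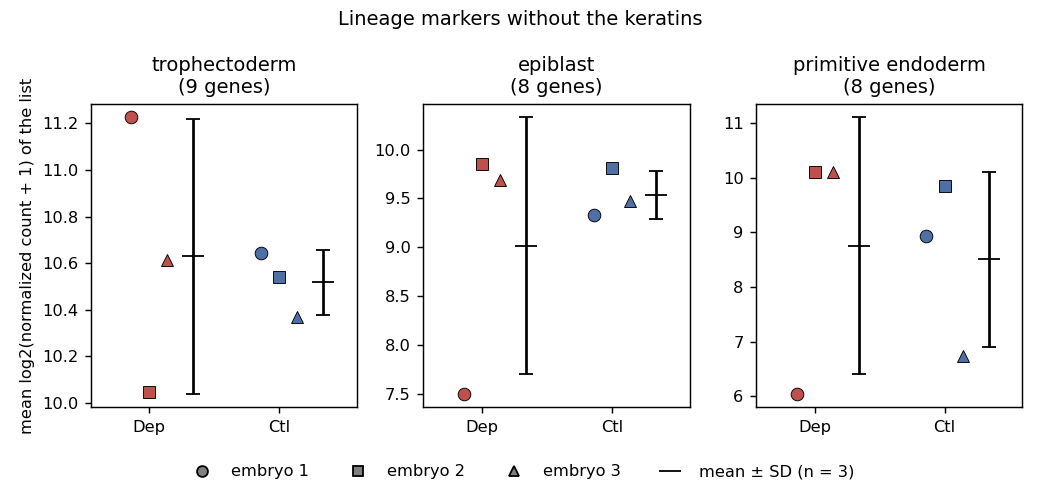
Mean log2(normalized count + 1) of lineage markers, keratins left out, for the trophectoderm (9 genes), epiblast (8 genes) and primitive endoderm (8 genes), with 1 point per embryo, Dep left and Ctl right, and bars for the mean ± SD. Dep 1 lies highest for trophectoderm, at 11.23, and lowest for epiblast, at 7.50, and primitive endoderm, at 6.05. Ctl 3, at 6.73, lies next to it for primitive endoderm.

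Krt8 and Krt18 were abundant, and Krt7 and Krt19 were far lower. Levels of different genes are compared per kilobase of merged exons, from GENCODE M21 on GRCm38. Krt18 averaged 16279 ± 9140 normalized counts per kilobase over the 6 embryos, Krt8 11551 ± 4148, Krt19 129 ± 241 and Krt7 121 ± 96.8 (SD, n = 6 each). Ranked by this mean, Krt18 was 38th and Krt8 63rd of 11829 genes with a known length. Krt19 and Krt7, at ranks 5483 and 5670, lay near the middle. The Krt19 mean rests on Ctl 2, at 618 per kilobase, with 0 to 60.6 in the other embryos. By mean normalized count, without length, Krt7 ranked 4325th and Krt19 7887th of all 12149 genes. Krt18 exceeded Krt8 in 6 of 6 embryos, by a mean log2 difference of 0.41 ± 0.28 (SD), and Krt8 exceeded Krt19 in 6 of 6 embryos, by 8.34 ± 2.83 when the 0 of Dep 1 is set to 3 reads. Both differences passed an exact two-sided sign-flip permutation test over embryos (adjusted p = 0.0469 over the 3 neighbouring pairs). Their unadjusted p was the smallest that 6 embryos allow. The pairs follow the order of means in these same embryos, so the test is no independent check of that order. Krt18 against Krt8 passed after adjustment only because Krt8 against Krt19 had the same p. Krt19 and Krt7 did not differ beyond their spread (mean log2 difference -1.43 ± 2.80, Krt19 the higher in 2 of 6 embryos, exact p = 0.281). The length used decides part of this order. Merged exons of Krt7, taken over all its annotated transcripts, span 7049 bases, while its reading frame has 1371. Per kilobase of the longest transcript, 4094 bases for Krt7, Krt19 minus Krt7 was -1.98 and did not pass (exact p = 0.125). Krt18 against Krt8 was unchanged by that length. Coding length was a measure chosen after the data were seen. By it Krt18 against Krt8 no longer passed (0.18, exact p = 0.125), and Krt7 exceeded Krt19 (Krt19 minus Krt7, -3.18, adjusted exact p = 0.0469).

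**Figure D2:**
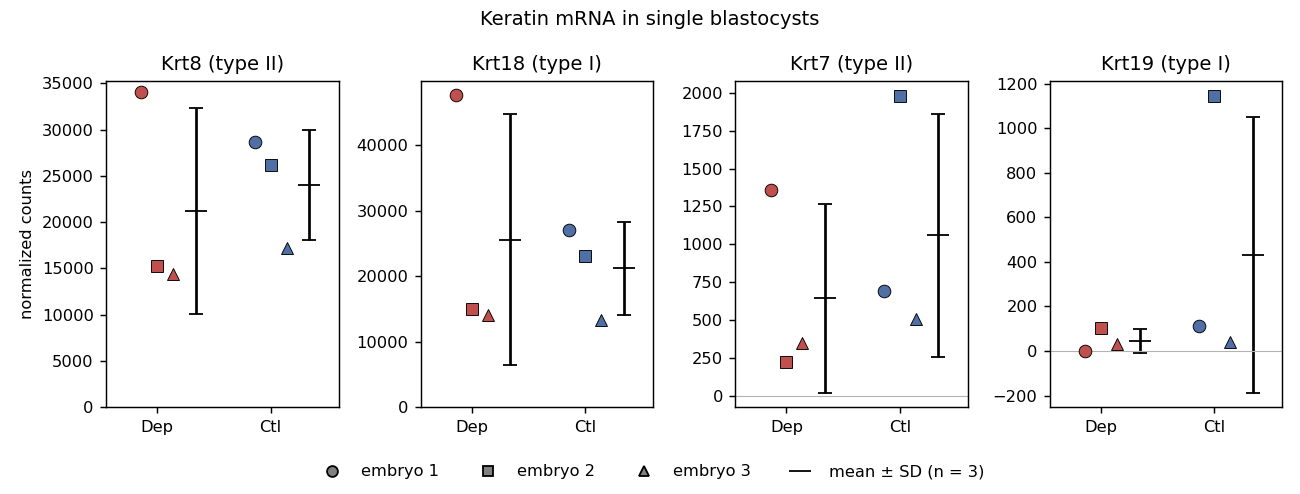
Normalized counts of the 4 keratins (y axis, a linear scale of its own for each gene) in each embryo, Dep left and Ctl right, with bars for the mean ± SD. Dep 1 is the highest embryo for Krt8 (34040) and Krt18 (47707), and Ctl 2 the highest for Krt7 (1980) and Krt19 (1146).

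Krt8, the main type II keratin of simple epithelia, had 34040, 15218 and 14423 normalized counts in Dep 1, 2 and 3, against 28621, 26151 and 17242 in Ctl 1, 2 and 3. Dep 1 was higher than every Ctl embryo, and Dep 2 and Dep 3 were lower than every Ctl embryo, so the groups overlapped. Krt18, its type I partner, had 47707, 15018 and 14066 in Dep 1, 2 and 3, against 27125, 23056 and 13384 in Ctl 1, 2 and 3. Here too Dep 1 was the highest of all embryos, while Dep 2 and Dep 3 lay between Ctl 3 and Ctl 2. The mean of Krt8 was 21227 ± 11103 in Dep and 24005 ± 5986 in Ctl, and that of Krt18 25597 ± 19154 in Dep and 21189 ± 7058 in Ctl (SD, n = 3 each). In whole embryos, fewer trophectoderm cells and less keratin RNA per cell cannot be told apart. Beside its high Krt8 and Krt18, Dep 1 had the highest summed level of the 9 other trophectoderm markers, 60230 normalized counts against 21218 and 29849 in the other Dep embryos and 29910.5 to 49154 in Ctl, of which Id2 gave 35837. It also had the lowest summed level of the 8 epiblast markers, 6674 against 14916 and 11151 in the other Dep embryos and 8064 to 11248 in Ctl. Its summed level of the 8 primitive endoderm markers was the highest, 25773 against 20590 and 24496 in the other Dep embryos and 20699 to 24333 in Ctl, although their mean log2 level was the lowest. Dab2 alone gave 22085 of that sum. Single markers did not all follow the sums. Cdx2, Gata2, Gata3, Eomes and Id2 were highest in Dep 1, while Elf5, Tfap2a and Tead4 were not and Tfap2c was lowest there. Of the epiblast markers all but Pou5f1 and Utf1 were lowest in Dep 1. In Dep 1 and Ctl 3 Pou5f1 had 2767 and 1977, and Utf1 637 and 615. Tdgf1 had 17.0 in Dep 1 and 881 to 2402 in the other embryos. The part of these lineage differences in the keratin values was not tested.

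The type II gene Krt8 (ENSMUSG00000049382, minus strand, 101996698 to 102004482) and the type I gene Krt18 (ENSMUSG00000023043, plus strand, 102028180 to 102032027) lie side by side on chromosome 15 of GRCm38. They point away from each other with 23697 bases and no other wholly contained annotated gene between them. Krt7 (ENSMUSG00000023039, plus strand, 101411043 to 101430313) is on the same chromosome, with 42 annotated genes between it and Krt8, of which 23 are keratin genes by symbol. Krt19 (ENSMUSG00000020911, minus strand, 100140810 to 100148665) is on chromosome 11 in the type I cluster. All 4 are annotated as protein-coding. The sequences before the starts of the neighbours Krt8 and Krt18 are shown with that of Krt7, and their part in the keratin levels was not tested. They come from RefSeq on GRCm38.p6, where 3 of the 4 genes matched by symbol, run 5′ to 3′ on the strand of the gene and end before the first exon of the coding transcript in GENCODE. Their places are chr15:102004483-102004592 for Krt8, chr15:102027966-102028179 for Krt18 and chr15:101412153-101412401 for Krt7. Capitals mark matches, on either strand, to 3 of the motifs searched. The first, bound by GATA factors, is AGATAA. The second, of AP-2 factors, is GCCNNNGGC. The third, of SP and KLF factors, is GGGCGG.
Krt8: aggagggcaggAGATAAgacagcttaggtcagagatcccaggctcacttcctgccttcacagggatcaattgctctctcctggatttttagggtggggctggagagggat
Krt18: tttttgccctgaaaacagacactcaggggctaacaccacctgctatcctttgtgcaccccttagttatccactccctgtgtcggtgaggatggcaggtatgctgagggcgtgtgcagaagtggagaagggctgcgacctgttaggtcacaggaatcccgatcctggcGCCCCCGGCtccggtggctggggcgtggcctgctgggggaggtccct
Krt7: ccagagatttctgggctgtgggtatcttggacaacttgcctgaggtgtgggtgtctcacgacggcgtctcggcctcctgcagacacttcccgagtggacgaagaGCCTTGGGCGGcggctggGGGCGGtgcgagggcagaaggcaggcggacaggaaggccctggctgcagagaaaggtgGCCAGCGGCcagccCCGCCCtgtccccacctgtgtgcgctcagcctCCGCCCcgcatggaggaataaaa
Within 250 bases before the RefSeq start, where position -1 is the last base before it, Krt8 had 1 GATA match, at -239. Krt18 had 1 match to the AP-2 motif, at -83. Krt7 had 2 of the AP-2 motif, at -146 and -70, and 4 of the SP and KLF motif, at -141, -128, -56 and -24, the first of which overlaps the first AP-2 match. Of 32851 RefSeq promoters of this length, 9.99% held the GATA motif, 13.7% the AP-2 motif and 32.7% the SP and KLF motif. There was no match in these 3 windows to GGAATG of TEAD factors (in 12.6% of promoters), to TGANTCA of AP-1 (6.75%) or to TATAAA of the TATA box (12.4%).

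Dep was then compared with Ctl gene by gene, to ask whether embryos differ by the source of the injected sperm RNA. None of the trophectoderm keratins was called. By limma on log2(normalized count + 1), 0 of 12149 genes (0%) had an adjusted p under 0.05, and 225 (1.85%) an unadjusted one. Of the 4 keratins 0 passed either threshold in this fit. In other fits some had an unadjusted p under 0.05 and 0 had an adjusted one. For Krt19 the unadjusted limma p was 0.0238 with the replicate number as a block (adjusted p = 0.941). That number pairs embryos by a check on these same data, not by the labels, so its p adds no separate support. Krt19 was lower in Dep in all 3 pairs so made, but pair 3 held 39 reads in Dep and 44 in Ctl. Paired otherwise the direction can turn, since Dep 2, at 102 normalized counts, lay above Ctl 3, at 38.8. The unadjusted limma p of Krt19 was 0.0208 without Dep 2 and 0.0321 without Ctl 3, and that of edgeR was 0.0459. For Krt7 the unadjusted limma p was 0.0152 with library weights and 0.00718 without Dep 1, and for Krt8 it was 0.0493 without Dep 1. Dep 1 was the highest Dep embryo for both genes. Of the 12149 genes, 399 had an unadjusted p under 0.05 with library weights and 474 without Dep 1. The number was 420 with the block, 349 without Dep 2, 137 without Ctl 3 and 211 by edgeR. By DESeq2 on the recovered reads 1 gene of the table passed, which is no keratin, and by edgeR 0 did. The log2 fold of Dep over Ctl was -0.26 for Krt8 (95% interval -1.12 to 0.59), 0.09 for Krt18 (-0.97 to 1.15), -0.90 for Krt7 (-2.40 to 0.60) and -3.51 for Krt19 (-7.30 to 0.28), with an adjusted p of 0.9997 by limma for each. Groups did not overlap for 0 of the 4, against 6.9% of all genes. In the authors' deposited table the same log2 folds were -0.18 ± 0.37, 0.27 ± 0.44, -0.72 ± 0.63 and -3.26 ± 2.02 (SE) for Krt8, Krt18, Krt7 and Krt19, each with an adjusted p of 0.9999. DESeq2 on the recovered reads returned the same folds and p-values for these genes, so it is not a separate result. Without Dep 1 the limma log2 fold was -0.66 for Krt8, -0.48 for Krt18 and -1.66 for Krt7, with an adjusted p of 0.987 each. Leaving out some of the other embryos moved the folds the other way. That of Krt8 was -0.082 without Dep 2, -0.043 without Dep 3 and -0.12 without Ctl 1, and that of Krt7 was -0.37 without Dep 2 and -0.32 without Ctl 2. Without Ctl 3 the folds moved in the same direction as without Dep 1, to -0.48 for Krt8, -0.21 for Krt18 and -1.31 for Krt7. That of Krt7 was -1.08 without Ctl 1.

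**Figure D3:**
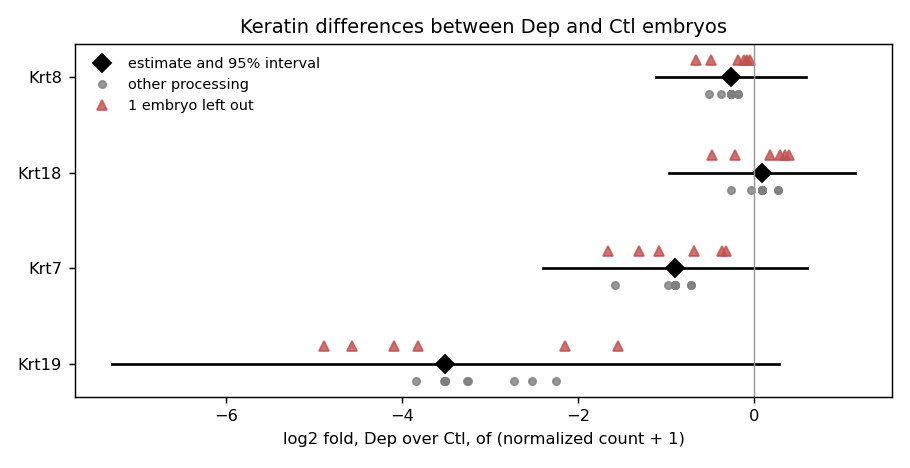
Log2 fold of Dep over Ctl on the log2(normalized count + 1) scale (x axis) for each keratin, with diamonds and lines for the limma estimate and its 95% interval, triangles for fits without 1 embryo and circles for other processing. All 4 intervals include 0, and the points of Krt18 lie on both sides of it.

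Krt7, the second type II keratin, had 1357, 223 and 345 normalized counts in Dep 1, 2 and 3, against 688, 1980 and 505 in Ctl 1, 2 and 3. Dep 2 and Dep 3 were lower than every Ctl embryo, and Dep 1 lay between Ctl 1 and Ctl 2. The means were 642 ± 622 in Dep and 1058 ± 804 in Ctl (SD, n = 3 each). Its highest embryo had 8.86 times the level of its lowest, against 2.36 times for Krt8 and 3.56 times for Krt18. The SD of its log2 level over the 6 embryos, 1.19, was larger than that of 94.8% of the 9613 genes with a mean of at least 100 normalized counts, whose median SD was 0.46. For Krt8, at 0.52, the share was 60.01%, and for Krt18, at 0.71, it was 80.6%.

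Krt19, a type I keratin that in mouse can stand in for Krt18, had 0, 102 and 32.9 normalized counts in Dep 1, 2 and 3, against 112, 1146 and 38.8 in Ctl 1, 2 and 3. These values stand for 0, 103 and 39 reads in the Dep embryos and 95, 1373 and 44 reads in the Ctl embryos. Ctl 2 stood far above the other embryos, and the groups overlapped. The 0 of Dep 1, at 17213406 reads in listed genes, allows up to 3 reads, counting error alone. The means were 45 ± 52.2 in Dep and 433 ± 619 in Ctl (SD, n = 3 each). Dep 1, the embryo with the highest normalized counts of Krt8 and Krt18, was the only one without a Krt19 read. In that embryo 5.69% of all listed genes were at 0. The limma log2 fold of Krt19 was -1.55 without Dep 1 and -2.15 without Ctl 2. Its size also depends on the number added before the logarithm, at -3.85 with 0.5 and -2.73 with 5.

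The ratio of Krt18 to Krt8, per kilobase of exon, was the one type I to type II ratio that separated the groups. It was 1.91, 1.34 and 1.33 in Dep 1, 2 and 3, against 1.29, 1.20 and 1.06 in Ctl 1, 2 and 3. All 3 Dep embryos lay above all 3 Ctl embryos, although Dep 3 and Ctl 1 were close. The mean log2 ratio was 0.59 ± 0.30 in Dep and 0.24 ± 0.15 in Ctl (SD, n = 3 each), a difference of 0.35 or 1.28-fold. A two-sided exact permutation test over embryos gave p = 0.1, the smallest that 3 against 3 allows, and adjusted p = 0.4 over the 4 ratios compared, so the difference did not pass. Of the 9612 genes other than Krt8 with a mean of at least 100 normalized counts, 4.84% had a ratio to Krt8 that was higher in all Dep than in all Ctl embryos, and 4.99% had a ratio without overlap in either direction. Krt18 is among both. Without Dep 1 the difference was 0.18. As a share of reads, Krt18 made up 58.4% (95% Wilson interval 58.0 to 58.7), 49.7% (49.1 to 50.2) and 49.4% (48.8 to 49.9) of the Krt8 and Krt18 reads in Dep 1, 2 and 3. In Ctl 1, 2 and 3 it made up 48.7% (48.2 to 49.1), 46.9% (46.5 to 47.3) and 43.7% (43.2 to 44.2). The intervals of Dep 3 and Ctl 1, the pair on which the separation of the groups rests, overlap. Reads carry no molecular identifiers, so these intervals cover counting error only. Over the 6 embryos the log2 ratio had an SD of 0.28, smaller than that of either gene.

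**Figure D4:**
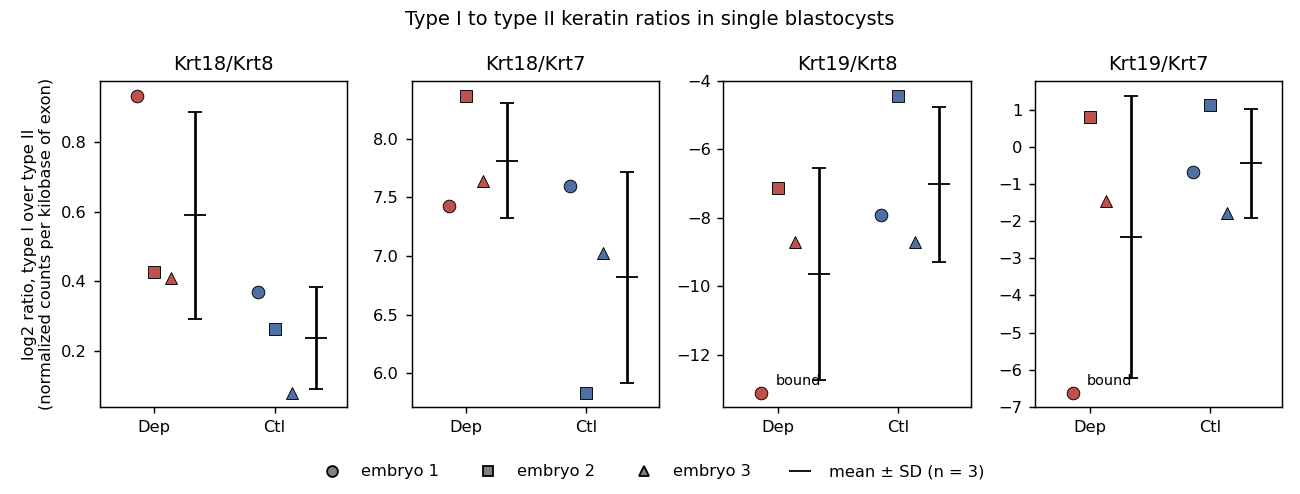
Log2 ratio of type I to type II keratins (y axis, normalized counts per kilobase of exon, a scale of its own for each pair) in each embryo, Dep left and Ctl right, with bars for the mean ± SD. For Krt18/Krt8 the 3 Dep embryos lie above the 3 Ctl embryos, and the points marked bound set the 0 of Krt19 in Dep 1 to 3 reads.

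The other 3 ratios overlapped between the groups. Krt18 to Krt7 was 172, 330 and 199.7 in Dep 1, 2 and 3, against 194, 57.1 and 130.1 in Ctl 1, 2 and 3 (exact permutation p = 0.2). Krt19 to Krt7 was at most 0.0102, then 1.74 and 0.361 in Dep 1, 2 and 3, against 0.621, 2.2 and 0.292 in Ctl 1, 2 and 3 (exact p = 0.5). Krt19 to Krt8 was at most 0.000113, then 0.00709 and 0.00241 in Dep 1, 2 and 3, against 0.00415, 0.0463 and 0.00238 in Ctl 1, 2 and 3 (exact p = 0.5). Adjusted over the 4 ratios, the smallest of these p-values was 0.4. Ctl 2 was the embryo with most Krt19 relative to either type II keratin, and its Krt18 to Krt7 ratio was the lowest.

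Summed over both genes of a type, type I keratins had 33199, 10506 and 9806 normalized counts per kilobase in Dep 1, 2 and 3, against 18937, 16663 and 9335 in Ctl 1, 2 and 3. Type II keratins had 17578, 7804 and 7415 in Dep 1, 2 and 3, against 14715, 13637 and 8878 in Ctl 1, 2 and 3. The type I share of this total was 65.4%, 57.4% and 56.9% in Dep 1, 2 and 3, against 56.3%, 55.0% and 51.3% in Ctl 1, 2 and 3. It follows the Krt18 to Krt8 ratio, since Krt19 gave at most 2.04% of the total and Krt7 at most 0.927%, both in Ctl 2. All 4 genes took 0.398%, 0.169% and 0.176% of the reads in Dep 1, 2 and 3, against 0.289%, 0.291% and 0.178% in Ctl 1, 2 and 3.

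Likeness of profile was measured as the root mean square difference between log2 levels over the 6 embryos after each gene's own mean was subtracted, for 9612 other genes. Closest to Krt8 were Galk2 (0.052), a galactose family kinase, Dstn (0.075), the actin-severing protein destrin, and Ckmt1 (0.085), a mitochondrial creatine kinase. Closest to Krt18 were Myl12b (0.078), a regulatory light chain of non-muscle myosin, Slc25a14 (0.127), a mitochondrial carrier, and Ugp2 (0.135), which makes UDP-glucose. Myl12b had 29829.5, 7946 and 7699 normalized counts in Dep 1, 2 and 3, against 15651, 12953 and 7909 in Ctl 1, 2 and 3. By the same measure Krt18 ranked 228th among the genes most like Krt8 (0.260), and Krt8 ranked 86th among those most like Krt18. Krt7 was most like Prss32 (0.358), Anxa3 (0.438) and Wdr72 (0.470), with Krt8 at rank 94 and Krt18 at rank 146. Anxa3, a phospholipid-binding annexin, had 2571, 476 and 474 in Dep 1, 2 and 3, against 1807, 2409 and 1379 in Ctl 1, 2 and 3. Krt19 was most like Hpse (1.09), Vim (1.10) and Plagl1 (1.15), which encode heparanase, the intermediate filament protein vimentin and an imprinted zinc finger factor. All 3, like Krt19, were at 0 in Dep 1, and the nearest member, Krt8, was at rank 6763. These ranks describe the 6 libraries only.

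**Figure D5:**
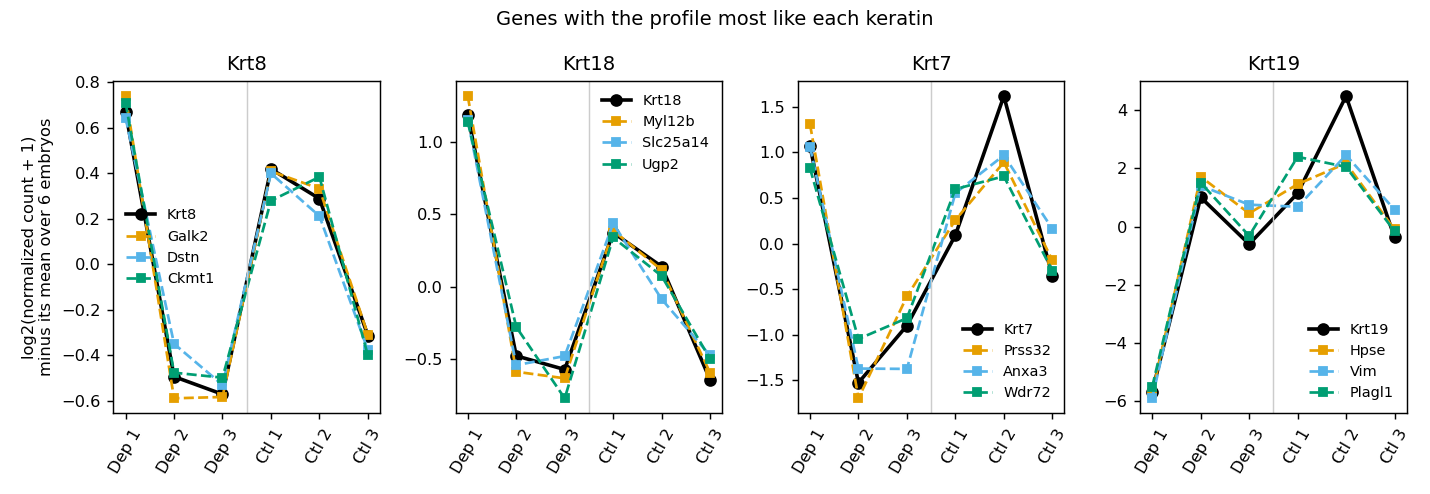
Log2(normalized count + 1) minus its mean over the 6 embryos (y axis) by embryo (x axis, Dep 1 to 3 and then Ctl 1 to 3) for each keratin in black and the 3 genes closest to it in colour. Krt8 and Krt18 peak in Dep 1 and Krt7 in Ctl 2, while Krt19 and its closest genes drop to 0 counts in Dep 1.

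The table listed 3 other keratin genes, all scarce beside Krt8. Krt10, a type I keratin of differentiated epidermis, had 421, 282 and 263 normalized counts in Dep 1, 2 and 3, against 475, 271 and 295 in Ctl 1, 2 and 3. Krt14, the type I keratin of basal epidermal cells, had 0, 45.7 and 0 in Dep 1, 2 and 3, against 35.5, 66.0 and 51.2 in Ctl 1, 2 and 3. Krt87, a type II keratin of hair, had 0, 61.6 and 19.4 in Dep 1, 2 and 3, against 43.8, 40.9 and 61.8 in Ctl 1, 2 and 3. All 3 had a lower mean log2 level in Dep, as had 51.8% of all genes, and 0 passed the test (median log2 fold -2.18). Without Dep 1 the median was -0.46.

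Genes that work with keratin filaments gave no call by limma either. Of 15 measured anchors and linkers, 13 were lower and 2 higher in Dep, while 51.8% of all genes were lower. The median log2 fold of the 15 was -0.27, against -0.02 over the whole table, and 0 passed. Perp, a membrane protein of desmosomes, had 4391 ± 615 in Dep and 5590 ± 446 in Ctl, and Dsp, desmoplakin, which ties keratin filaments to desmosomes, had 2918 ± 267 in Dep and 3545 ± 585 in Ctl. Itga6, an integrin chain found in hemidesmosomes, had 2141 ± 680 in Dep and 3029 ± 129 in Ctl, and Ppl, periplakin, had 53.5 ± 34.1 in Dep and 123 ± 60.4 in Ctl (SD, n = 3 each). Of the 15, 2 did not overlap between the groups, Perp and Itga6, against 6.9% of all genes, and Itga6 was named for its small p. Without Dep 1 the counts were 11 lower and 4 higher, with a median of -0.32. In that fit 5839 of all 12149 genes were lower, with a median of 0.02.

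Of 12 other intermediate filament genes, 9 were lower and 3 higher in Dep (median log2 fold -0.34, with 51.8% of all genes lower), and 0 passed. Here 5 of the 12 were at 0 reads in Dep 1, and without that embryo 4 were lower and 8 higher (median 0.03). Lmna, the A-type lamin of the nuclear envelope, had 2831 ± 676 in Dep and 3449 ± 1207 in Ctl, and Lmnb1, a B-type lamin, had 766 ± 200.4 in Dep and 816 ± 183 in Ctl (SD, n = 3 each). Vim had 0, 157 and 99.4 in Dep 1, 2 and 3, against 94.7, 326 and 88.3 in Ctl 1, 2 and 3, and Bfsp1, known from the lens, had 12 ± 17.5 in Dep and 50.5 ± 24.3 in Ctl (SD, n = 3 each). Bfsp1, named for its small p, was the 1 gene of the 12 without overlap between the groups, a share near the 6.9% of all genes.

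Of 17 measured modifiers and turnover factors, 8 were higher and 9 lower in Dep (median log2 fold -0.05), and 0 passed. Hspa8, a constitutive chaperone of the heat shock family, had 61749 ± 24046 in Dep and 42007 ± 13620 in Ctl, and Ywhae, a 14-3-3 protein, had 23086 ± 5100 in Dep and 19540 ± 3259 in Ctl. Hspb1, a small heat shock protein that associates with intermediate filaments, had 2360 ± 1720 in Dep and 4580 ± 1912 in Ctl, with an unadjusted limma p of 0.0489 and an adjusted p of 0.9997. Stub1, a ubiquitin ligase that acts with chaperones, had 1299 ± 67.7 in Dep and 970 ± 198 in Ctl (SD, n = 3 each), and was the 1 gene of the 17 without overlap, against 6.9% of all genes. Of 16 transcriptional regulators of the trophectoderm, 6 were higher and 10 lower in Dep (median log2 fold -0.06, with 51.8% of all genes lower), and 0 passed. Id2 had 18774 ± 14873 in Dep and 18400 ± 10557 in Ctl, with 35837 in Dep 1 and 30236 in Ctl 1, which are also the embryos with most Krt8. Gata3 had 7396 ± 3064 in Dep and 7676 ± 1076 in Ctl, Gata2 808 ± 674 in Dep and 361 ± 145 in Ctl, and Arid3a 165 ± 33.7 in Dep and 84.1 ± 33.2 in Ctl (SD, n = 3 each). Arid3a was the 1 gene of the 16 without overlap, again against 6.9% of all genes.

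Reads of similar genes could affect the counts of Krt8 and Krt18. In the GENCODE transcripts Krt8 has 1 near copy, the processed pseudogene Krt8-ps, with 98.6% identity over 941 bases, and Krt18 has 1, the processed pseudogene Gm5200, with 90.2% identity over 1269 bases. Neither is listed in the table, and how reads that match both places were counted is not given in the sources used here. At a minimum of 90% identity over 300 bases, Krt7 and Krt19 have 0 near copies. The longest exact run shared by transcripts of 2 members is 30 bases, between Krt8 and Krt7. An annotated non-coding RNA gene overlaps each of Krt8 and Krt7 on the other strand, Gm36026 and Gm671. Both are outside the table, and without strand their reads could not be told from those of the keratins.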

How the data were processed

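Per the labels' protocols, single embryos were lysed and reverse transcribed with a SMART-Seq v4 kit, a method that keeps no strand. HISAT2, Cufflinks 2.2.1 and mm10 are named, with no role for each, in the submitters' processing notes. The program that counted reads is not given in the sources used here. Signal values as deposited are, by their low values, read counts divided by 1 size factor per library, and dividing by the value of 1 read turned 100% of values whole (tolerance 0.01). In Dep 2 that value, 0.993, is close to 1. Its reading rests on likeness to the other columns and on DESeq2, which returned the deposited keratin folds from the recovered reads. Per the file headers, columns for the authors' own comparison follow: log2 fold, its error, a score (test statistic), and p-value with adjustment. The lowest mean is 14.2 normalized counts, so depth here means reads in listed genes. Of the identifiers, 11829 matched GENCODE M21 and 320 did not.

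From these values, limma 3.58.1 with a mean-variance trend was fitted over all genes on log2(normalized count + 1), with Benjamini-Hochberg adjustment and a threshold of 0.05. DESeq2 1.42.0 and edgeR 4.0.16 (quasi-likelihood) were run on recovered reads (R 4.3.3, Python 3.11.15, SciPy 1.17.1). Ratios and level orders were tested with exact two-sided permutation tests. The fit was tested on simulated data for Dep over Ctl (12149 genes, 200 changed). There limma found 10.3%, 65.2% and 84.8% of genes with log2 changes of 1, 2 and 3 and made 5 false calls. Each simulated gene had the smoothed spread of its mean level, without an outlying embryo. Krt7 and Krt19 varied more than 94.8% and 99.8% of genes with a mean of at least 100 normalized counts. For them these shares do not hold. Near copies were sought with BLAST. The keratins, gene lists and tests were chosen with earlier results of these data known. Beside the members and other keratins, the naming rule took from each list the 2 members of highest mean FPKM and the 2 of smallest p, and the 3 genes most like each member. Same-numbered embryos of the groups deviated together (r = 0.133, 0.151 and 0.129 across genes for numbers 1, 2 and 3), each above 0.1. For embryos of unlike number r was -0.158 to 0.044. Deviations within a group cancel out, so positive values for some pairs go with negative ones for others. The number was taken to pair embryos on this ground, and was fitted as a block in an alternative. That pairing comes from this check, not from the labels.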

Additional observations from a re-analysis of the deposited data

How the results depend on the processing

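The counts of genes and the 4 keratin folds were recomputed under other pseudocounts, scalings, filters, tools and library weights, and without each embryo. The 4 ratios were recomputed with 1 added to each normalized count, other lengths and the replicate block, and without each embryo. Over all genes, 0 passed under every alternative except DESeq2, which called 1. Genes at an unadjusted p under 0.05, 225 by limma as reported, numbered 399 with library weights, 420 with the replicate block and 122 to 576 with 1 embryo left out. Of the keratins, 0 passed under any alternative (adjusted p from 0.838 to 0.9999). The folds of Krt8, Krt7 and Krt19 stayed negative throughout. That of Krt18 was -0.032 after quantile normalization and -0.26 with library weights, and ranged from -0.48 to 0.40 with 1 embryo left out. The difference in Krt18 to Krt8 ratio stayed positive, from 0.18 to 0.44 with 1 embryo left out. That of Krt19 to Krt7 ranged from -3.60 to 0.11, its sign turning without Dep 1. With the replicate number as a block, the ratio difference of Krt18 to Krt8 stayed at 0.35 (exact p = 0.25, the smallest that 3 pairs allow), and the block changed no call. With 1 embryo left out the smallest exact p of a level order is 0.0625, so the 2 differences that passed could not pass. They ranged from 0.31 to 0.48 for Krt18 over Krt8 and from 7.38 to 9.12 for Krt8 over Krt19. With coding length, Krt18 over Krt8 was 0.18 and Krt19 over Krt7 was -3.18, the first short of the threshold and the second past it. With the longest transcript, Krt19 over Krt7 was -1.98 and did not pass. For Krt8 and Krt18 the spread between embryos is far wider than counting error, while Krt19 rests on 0 to 1373 reads per embryo.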
